A study of Homo sapiens with 72 samples.

Results

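Population RNA-seq of 21 wells of U2OS cells, of 72 wells in the series, was used to describe the response to triptolide at 100 nM. U2OS is a human osteosarcoma line grown here in 24-well plates. The treated group was the 3 wells titled JAA804 at 100 nM, whose treatment label is triptolide, and the control group was all 18 wells titled DMSO at 0 nM; all of them were collected after 12 h. The other 51 wells held triptolide at 1000 nM and 10000 nM and 5 other compounds, and of these only the 6 higher-dose triptolide wells are used below. The labels number the wells but do not say whether they were separate cultures, so p-values measure the spread between wells, which may be technical.

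Triptolide binds ERCC3 (also called XPB), the DNA translocase of the general transcription factor TFIIH that opens promoter DNA for RNA polymerase II. When initiation is blocked, an mRNA declines at the speed of its own decay, so short-lived mRNAs of immediate early, cytokine and anti-apoptotic genes are known to be lost first and stable mRNAs of ribosomal, metabolic and matrix genes last. Mitochondrial mRNAs are made by a separate polymerase that does not use TFIIH. RNA-seq counts are shares of a library and do not show total RNA per cell, and in such bulk samples fewer cells of a type and less RNA per cell cannot be told apart.

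Depth was uneven. The triptolide wells 1, 2 and 3 held 34.5, 0.0708 and 10.5 mil counts, and the 18 DMSO wells ranged from 0.460 to 56.4 mil (median 36.8 mil). In triptolide well 2, 1 count was worth 13.1 CPM (counts scaled to a common library total of 1 mil, with totals adjusted by the TMM factors given in the processing section). A gene at 0 there could have been present at up to 39.2 CPM (3 counts, counting error only). DMSO well 10, of 0.460 mil, had the highest EGR4 and FOSB of the DMSO wells (73.8 and 35.9 CPM against DMSO medians of 0.136 and 1.36), which sets that library apart. Counts of genes are therefore also given without both of these shallow libraries. The log2 changes from the DMSO median correlated between triptolide wells 1 and 3 with r = 0.957 across 4389 genes, which are not independent replicates, against 0.661 and 0.665 for the pairs with well 2. Of 8 mesenchymal markers, TWIST1 was at 0 in every well and COL1A2 at or below 0.744 CPM, whereas VIM, COL1A1, SPARC and FN1 were each above 1200 CPM in every well. The cadherin CDH2 was at 121 to 236 CPM in DMSO and 380, 131 and 304 CPM in triptolide, and the osteoblast factor RUNX2 went from 6.92 to 15.1 CPM in DMSO to 1.79, 0 and 1.05 CPM. Summed blood markers reached at most 0.467 CPM in any well. Of 5 epithelial markers, the keratin KRT8 was at 164 to 282 CPM in DMSO and 340 to 558 CPM in triptolide, KRT18 stayed inside its DMSO range of 268 to 432 CPM (291, 274 and 306 CPM), and EPCAM, CDH1 and KRT19 were at or below 3.73 CPM in every well and at 0 in triptolide well 2. The part of these markers in the results was not tested.

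Triptolide at 100 nM lowered more genes than it raised. Of 18471 genes tested, 2099 were raised (11.4%) and 3877 lowered (21%), where a call required a Benjamini-Hochberg adjusted p under 0.05 by edgeR's quasi-likelihood test and a log2(Fold Change) beyond 1. The lowered genes were 64.9% of all calls. Changes beyond 2 on the log2 scale were seen for 447 raised and 1208 lowered genes, and beyond 3 for 118 and 350. Without both shallow libraries, 2573 of 19317 genes were raised (13.3%) and 3793 lowered (19.6%), and 2053 raised and 3738 lowered genes carried the same call in both fits. Many raised genes were rare, since 541 of them averaged under 1 CPM in the triptolide wells. All directions are relative to the bulk of genes. Scaling by library size alone shifted the median of all genes by -0.33 on the log2 scale and left 1085 raised and 5529 lowered genes. Scaling to the 13 mitochondrially encoded mRNAs shifted it by -1.66 and left 146 and 13802. Of the 113 genes named by the rule, 31 changed sign under the latter and were called in at least 1 of these fits. Each of these values is given below or in the closing section. Sign changes of genes called in neither fit are not counted. Rises close to the fold threshold depended on such choices. By library size alone PER1, COX4I1, LAMP1, CTSD, COL1A1, ELL, IL11, PSMB10, TPI1, LIG1, TOB1, PDIA4 and FDPS were no longer called. MT-ATP8 stayed past the fold threshold there (1.56) but was no longer called either, with an adjusted p of 0.0726 by edgeR's test. With the slope of each library's levels on GC content as a covariate PER1, COX4I1, CTSD, COL1A1, ELL, RPS15, PSMB10, TPI1, LIG1 and FDPS were not. The lowered genes GAS5, PSMC6 and TUG1 also lost their call with that covariate. The median over all genes was -0.16 in the main scaling, and the medians of the gene lists below are read beside it, as their counts are beside the 11.4% raised and 21% lowered over all genes. For every list with 0 members called in a direction by edgeR at 100 nM, DESeq2 also called 0 there, 0 members passed the fold threshold at an unadjusted p under 0.05, and between 0 and 15 members had such a p with a smaller change.

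The heptamer TATTTAT is the core of AU-rich elements, sites in 3′ UTRs that recruit decay factors to short-lived mRNAs. Sites from 4 lowered and 4 raised genes are shown because the same letters were found on both sides of the response. These 8 genes were picked after their values were seen. Each line gives 27 bases of the mRNA strand of the 3′ UTR from GRCh38 and GENCODE 44, with the heptamer in capitals.
NFKBIA, lowered, chr14:35401700-35401726, minus strand: ccacattttaTATTTATtgtgcttcga
MCL1, lowered, chr1:150575808-150575834, minus strand: cctctacagaTATTTATatcaattcct
JUN, lowered, chr1:58780820-58780846, minus strand: tgcttatgaaTATTTATaacagcattc
PLK2, lowered, chr5:58454067-58454093, minus strand: ataaacttttTATTTATtacagcccaa
FOSB, raised, chr19:45474532-45474558, plus strand: attccttagcTATTTATccctttcctg
IL11, raised, chr19:55365948-55365974, minus strand: agccagatctTATTTATttatttattt
EPHA2, raised, chr1:16125107-16125133, minus strand: ctggggacttTATTTATttctagttct
PMAIP1, raised, chr18:59903962-59903988, plus strand: ggaataatttTATTTATtttgcctatt
The heptamer was searched on the mRNA strand, overlapping matches included. It occurred 2 times in the NFKBIA 3′ UTR, 3 times in MCL1, 1 time in JUN, 2 times in PLK2, 1 time in FOSB, 7 times in IL11, 2 times in EPHA2 and 3 times in PMAIP1. Of the 3′ UTRs of 14327 tested protein-coding genes, 35.4% held at least 1 match, with 24.2% among raised, 42.7% among lowered and 34.6% among the other genes. The 3′ UTRs of these classes also differed in length, with medians of 679.5 bases in raised, 1727.5 in lowered and 1276 in the other genes. Among genes in the middle of 5 equal groups by 3′ UTR length, 24.2% of those with no match, 23.9% of those with 1 and 21% of those with 2 or more were lowered. These lowered shares lie close together and do not rise with the number of matches. In the same order, 10.3, 8.77 and 7.63% were raised, and the median log2(Fold Change) was -0.21, -0.28 and -0.47, lower with more matches. Median DMSO levels of these groups also differed, at 24.9, 20.8 and 14.5 CPM, and the part of level was not tested. A match is a description of the sequence and not a site of action.

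The target complex was examined first. ERCC3 was at 79.8, 78.3 and 65.4 CPM in triptolide wells 1, 2 and 3, within the DMSO range of 37.8 to 81.2 CPM (median 75.8), with a log2(Fold Change) of -0.01 ± 0.13 (SE; adjusted p = 0.945). CDK7, the TFIIH kinase that phosphorylates RNA polymerase II, fell from a DMSO range of 27.2 to 45.4 CPM (median 33.8) to 10.9, 26.1 and 13.3 CPM. Its log2(Fold Change) was -1.45 ± 0.19 (adjusted p = 5.35e-07), and the groups did not overlap, although well 2 held 2 counts of it. GTF2H2, a core TFIIH subunit with near-identical copies that can share its reads, was the other lowered member (-1.14). Of 10 TFIIH subunits, 2 were lowered (20%, beside 21% of all genes) and 0 raised, and 1 was lowered with the GC covariate.

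**Figure D1:**
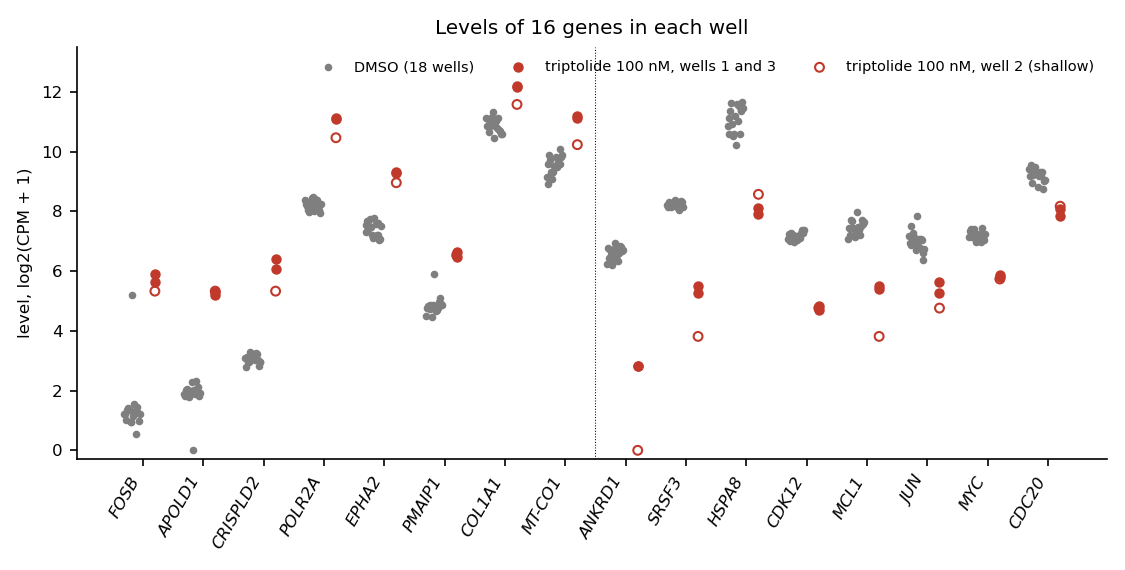
Levels of 16 named genes on a log2(CPM + 1) axis, 8 raised (left of the dotted line) and 8 lowered (right). Each grey point is 1 of 18 DMSO wells, filled red points are triptolide 100 nM wells 1 and 3, and the open red point is the shallow well 2. The triptolide wells sit above the DMSO wells on the left and below them on the right, a separation that the naming rule partly fixes and that 683 of 2099 raised and 2455 of 3877 lowered genes had. FOSB in DMSO well 10, at 35.9 CPM, is close to triptolide well 2 at 39.2 CPM. The rise of COL1A1 turns to -0.45 when scaled to mitochondrially encoded mRNAs. MT-CO1 is among the mRNAs that set this scaling, so its value there (-0.13) is held near 0 by construction.

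POLR2A, the largest subunit of RNA polymerase II (ENSG00000181222, chromosome 17, 7484366 to 7514616, GRCh38), rose far more than the rest of the enzyme. It was at 243 to 354 CPM in DMSO (median 301) and at 2250, 1410 and 2159 CPM in triptolide wells 1, 2 and 3. Every triptolide well was well above every DMSO well. The log2(Fold Change) was 2.74 ± 0.103 (SE; adjusted p = 3.23e-16) and 2.92 without the shallow libraries, and it stayed above 0 when libraries were scaled to mitochondrially encoded mRNAs. The small shared subunits POLR2F (1.42) and POLR2L (1.15) also rose, and the other 9 of 12 subunits were not called. The median of the list was 0.52, turning to -1.15 under mitochondrial scaling.

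Among elongation factors, ELL, a subunit of the super elongation complex, rose (1.08; 46.8, 39.2 and 46.2 CPM against 17.7 to 28.3 in DMSO), but it was under the fold threshold by library size (0.76), with no filter on low counts (0.99) and with the GC covariate (0.95), so that 0 members were raised in each. CDK12, the kinase needed for expression of long and DNA repair genes, fell from 123 to 166 CPM in DMSO (median 140) to 27.2, 26.1 and 25 CPM, a log2(Fold Change) of -2.45 ± 0.127 (adjusted p = 1.54e-13). These 3 treated wells lay closely together and far under every DMSO well. NELFA of the pausing complex (-1.95) and the 7SK partners LARP7 (-1.49) and MEPCE (-1.22) also fell. HEXIM1, the inhibitor of P-TEFb, was at 182, 144 and 168 CPM against 94.8 to 138 in DMSO, a log2(Fold Change) of 0.59 that did not reach the threshold. In all, 1 of 24 genes was raised and 4 were lowered (median -0.02). ELL turned to -0.61 and HEXIM1 to -1.04 under mitochondrial scaling.

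Immediate early genes, which encode unstable growth-induced mRNAs, went both ways. FOSB, an AP-1 subunit (ENSG00000125740, chromosome 19, 45467995 to 45475179), was at 48.7, 39.2 and 58.9 CPM in triptolide and at 0.461 to 35.9 CPM in DMSO, with a DMSO median of 1.36. Its log2(Fold Change) was 5.19 ± 0.382 (adjusted p = 5.67e-11) and 5.36 without DMSO well 10 and triptolide well 2. The zinc finger factor EGR3 (2.91), the orphan nuclear receptors NR4A3 (2.56) and NR4A2 (2.44), IER3 (1.23) and ATF3 (1.21) also rose. EGR3 stayed at a low level, at 2.05, 0 and 4.2 CPM against at most 0.638 CPM in DMSO. Lowered members included the AP-1 subunits JUN and JUND (-1.93), KLF6 (-1.93), IER2 (-1.97), MYC and CCN1 (-1.11). JUN was at 48.3, 26.1 and 37.7 CPM against 81.4 to 229 in DMSO (median 129), a log2(Fold Change) of -1.60 ± 0.245 (adjusted p = 5.26e-06). MYC, the growth-promoting transcription factor, was at 57.7, 52.2 and 55.3 CPM against 125 to 174 in DMSO (median 141), with -1.36 ± 0.134 (adjusted p = 6.50e-09). For both genes no triptolide well reached the lowest DMSO well. Of 29 tested members, 6 were raised and 7 lowered, and the median of -0.17 became 0.24 without the shallow libraries.

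MAP kinase feedback genes were mostly not called, with 2 raised and 1 lowered of 16. The receptor EPHA2 rose to 617, 496 and 636 CPM from 130 to 219 in DMSO (median 173), a log2(Fold Change) of 1.82 ± 0.129 (adjusted p = 2.80e-11). The sprouty inhibitor SPRY4 rose by edgeR (1.58; 7.44, 0 and 7.7 CPM against 1.33 to 5.67), though the 0 in well 2 lies below the DMSO wells at a depth where 1 count is 13.1 CPM. Scaling to mitochondrial mRNAs turned SPRY4 to -0.094. DUSP6 was called lowered from a level below 1 CPM in every DMSO well.

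NF-kB feedback and cytokine genes had 9 lowered and 2 raised of 22 (median -0.65). The count was 5 lowered and 1 raised without triptolide well 3, and 4 lowered and 1 raised of 18 among genes with a mean of at least 1 CPM. The chemokine CXCL3 (-2.42), the cytokine LIF (-2.40), REL (-2.08), TRAF1 (-2.05) and BIRC3 (-1.89) were among the lowered genes. NFKBIA, the IkB-alpha inhibitor, was at 19, 13.1 and 15 CPM against 26.5 to 43.2 in DMSO (median 34.6), and its log2(Fold Change) of -1.03 ± 0.157 (adjusted p = 4.53e-06) was just past the threshold. It was no longer called without triptolide well 3 (-0.87). IL11, a cytokine, rose to 47.2, 52.2 and 47 CPM from 14.2 to 37.8 in DMSO (median 19.6), with 1.29 ± 0.154 (adjusted p = 1.45e-07), and was -0.37 under mitochondrial scaling. TNFAIP3 was not called (0.12, adjusted p = 0.799).

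In the BCL2 family, 7 of 19 genes fell and 2 rose (median -0.74). MCL1, the short-lived anti-apoptotic member (ENSG00000143384, chromosome 1, 150560895 to 150579738), was at 44.3, 13.1 and 40.8 CPM against 134 to 252 in DMSO (median 172). The log2(Fold Change) was -2.08 ± 0.195 (adjusted p = 2.96e-09), and no well of one group entered the range of the other. BCL2 itself (-2.65) and the pro-apoptotic genes BMF (-3.02), HRK (-2.98), BOK (-1.74) and BBC3 (-1.43) also fell. PMAIP1, which encodes the MCL1-binding protein NOXA, rose to 86.7, 91.4 and 99 CPM from 20.9 to 58.6 in DMSO (median 26.5), with 1.77 ± 0.149 (adjusted p = 5.33e-10). BIK, another pro-apoptotic gene, rose as well (1.55). Pro-apoptotic members were thus found in both directions.

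Among 31 p53 target genes, 4 rose and 4 fell (median 0.16, or -0.16 by library size and -1.52 under mitochondrial scaling). PMAIP1, PLK3 (1.47), FDXR (1.19) and the DNA repair factor DDB2 (1.08) rose, while PLK2 (-1.67), AEN (-1.43), BBC3 and TP53INP1 (-1.04) fell. The cell cycle inhibitor CDKN1A was at 181, 144 and 169 CPM, inside the DMSO range of 127 to 199 CPM, and was not called. The p53 ligase MDM2 was not called either (-0.44, adjusted p = 0.0535).

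Signal-driven gene lists moved mainly down. In the YAP and TEAD list, 8 of 21 genes fell and 2 rose (median -0.80). ANKRD1, a cardiac ankyrin repeat protein and common YAP reporter gene, fell from 71.9 to 123 CPM in DMSO (median 98.3) to 6.03, 0 and 6.07 CPM. That is a log2(Fold Change) of -3.99 ± 0.219 (adjusted p = 3.83e-13), 1 of the largest falls in the data. Tissue factor F3 (-2.20), FJX1 (-1.89) and TGFB2 (-1.87) fell, and CRIM1 (1.26, or -0.27 under mitochondrial scaling) rose. In the TGF-beta and BMP list, 5 of 16 genes fell, among them the inhibitory SMAD6 (-1.59) and the HLH inhibitors ID3 (-1.41) and ID1 (-1.28). In the circadian list 6 of 18 fell, led by the PAR bZIP factors TEF (-2.65) and DBP (-2.42), and PER1 rose (1.10, or -0.56 under mitochondrial scaling).

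The stress-response lists had lowered members and, in the fit of all 21 wells, 0 raised. Cytosolic heat shock genes had 6 of 18 members lowered (33.3%, beside 21%) and 0 raised (median -0.31). HSPA8, the constitutive HSC70 chaperone, fell from 1205 to 3225 CPM in DMSO (median 2298) to 275, 379 and 240 CPM, with -3.04 ± 0.32 (adjusted p = 1.85e-08). The co-chaperone DNAJB1 fell too (-1.92), as did HSPA1B (-1.75) and HSPA1A (-1.55), which are near-identical in sequence and may share reads. The ATF4 list had 5 of 22 lowered (22.7%), near the 21% of all genes. These were CHAC1 (-2.69), CEBPG (-2.35), VLDLR (-2.35), TRIB3 (-1.92) and DDIT4 (-1.91), and ATF4 itself at -0.11 was not called. The NRF2 list had 6 of 20 lowered (30%), led by heme oxygenase HMOX1 (-2.41), and 2 raised without the shallow libraries. Its median of -0.30 became 0.05 with the GC covariate.

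Zinc finger genes, many of them KRAB repressors with short-lived mRNAs, were often lowered. Of 508 genes on the list 458 were tested, 204 were lowered (44.5%, beside 21% of all genes) and 14 raised, with a median of -0.88. Their share of all counts was 0.430, 0.445 and 0.437% in triptolide and 0.684 to 0.921% in DMSO. The means were 0.437 ± 0.00719% (SD, n = 3) and 0.781 ± 0.0639% (SD, n = 18), and no wells overlapped (p = 0.000752 by exact permutation, two-sided, which is the lowest value possible with 3 against 18 wells; adjusted over 5 shares 0.00094). ZNF772 had the largest fall among the named genes, from 7.57 to 20.1 CPM in DMSO to 0.93, 0 and 0 CPM (-4.60). ZNF622, a ribosome assembly factor without KRAB domain, rose instead (1.47, or -0.15 under mitochondrial scaling).

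Splicing and decay factors included many lowered genes. In the SR family, which encodes regulators of exon choice, 7 of 13 fell, 0 rose and the median was -1.29. SRSF3 fell from 263 to 332 CPM (median 293) to 44.5, 13.1 and 37.3 CPM, a log2(Fold Change) of -2.90 ± 0.128 (adjusted p = 1.05e-14), and SRSF4 (-2.09) and SRSF6 (-1.90) followed. All treated wells lay far below the lowest DMSO well. Of 33 mRNA decay factors, 12 fell and 1 rose (median -0.37), with 7 lowered without triptolide well 1 and 5 with the GC covariate. The deadenylase subunits CNOT6L (-2.56), CNOT2 (-1.86), CNOT6 (-1.48) and CNOT1 (-1.28) and the exonuclease XRN1 (-2.34) fell, and the anti-proliferative TOB1, which binds the deadenylase, rose (1.11, or -0.53 under mitochondrial scaling).

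Of the cell cycle lists, mitosis genes had the largest share of lowered members. They had 18 of 41 members lowered, 0 raised, and a median of -0.88. The checkpoint kinases TTK (-2.67) and BUB1B (-2.43), the spindle protein ASPM (-2.37), the motor KIF11 (-2.14), cyclin B1 CCNB1 (-2.03) and PLK1 (-2.01) fell, though TTK was not called without triptolide well 1 (-2.03). CDC20, the APC/C activator, was at 271, 287 and 229 CPM against 425 to 757 in DMSO (median 590), with -1.22 ± 0.153 (adjusted p = 3.09e-07). DNA replication genes had 9 of 40 lowered (22.5%, near the share of all genes) and 1 raised (median -0.24), with POLD3 at -3.26, the GINS subunits GINS3 at -2.86 and GINS1 at -2.40, and the ligase LIG1 at 1.17 (-0.38 under mitochondrial scaling). The G1 list had 3 of 17 lowered (E2F2 -1.55, RBL1 -1.51, CDK6 -1.03), and CCND1 was not called (0.38). Of 64 histone genes 35 were tested, 9 were lowered and 1 raised. Most replication-dependent histone mRNAs lack a poly(A) tail and these libraries were made with poly(A) selection, so the list shows only what that step kept.

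Genes for making ribosomes and genes for ribosomal proteins gave different counts. Of 33 ribosome biogenesis genes, 7 fell (21.2%, beside 21% of all genes) and 0 rose (median -0.53), among them the RNA polymerase I subunits POLR1B (-2.14) and POLR1A (-1.48). Of 79 cytosolic ribosomal protein genes, 16 rose and 0 fell (median 0.80, with 28 raised without the shallow libraries, and a median of -0.75 with 22 lowered under mitochondrial scaling). By library size 2 were raised and with the GC covariate 6, so the count of raised members depends on these settings. RPS15 was at 954, 862 and 981 CPM against 219 to 582 in DMSO (1.27, or -0.32 under mitochondrial scaling). Ribosomal protein genes took 11.1, 10.5 and 10.1% of counts in triptolide and 5.69 to 8.04% in DMSO, with means of 10.6 ± 0.503% (n = 3) and 7.06 ± 0.697% (n = 18) and no overlap (exact permutation p = 0.000752, adjusted 0.00094). Of 33 translation factors, 3 fell and 0 rose (EIF5 -1.60, EIF4A2 -1.25, EIF1 -1.21), with a median of 0.30 that became -1.26 under mitochondrial scaling.

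**Figure D2:**
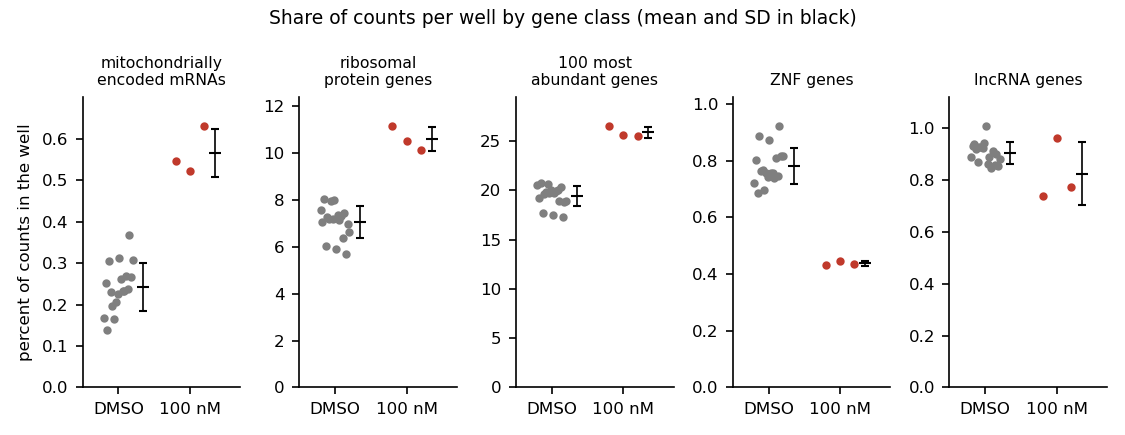
Percent of counts per well in 5 gene classes, for 18 DMSO wells (grey) and 3 triptolide 100 nM wells (red), with the mean and SD of each group in black. The triptolide wells lie above all DMSO wells for mitochondrially encoded mRNAs, ribosomal protein genes and the 100 most abundant genes, below them for ZNF genes, and among them for 1 of 3 wells in lncRNA genes.

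All 13 mitochondrially encoded mRNAs were raised, between 1.15 and 1.87 (median 1.54). MT-CO1, a core subunit of cytochrome c oxidase, was at 2348, 1201 and 2243 CPM against 476 to 1077 in DMSO (median 769), a log2(Fold Change) of 1.38 ± 0.172 (adjusted p = 2.71e-07). MT-ND1 of complex I was at 259, 248 and 281 CPM against 48.5 to 132 in DMSO (1.57). Together the class took 0.545, 0.521 and 0.630% of counts in triptolide and 0.138 to 0.367% in DMSO. The means were 0.565 ± 0.0571% and 0.243 ± 0.0579% (n = 3 and 18; exact permutation p = 0.000752, adjusted 0.00094), and no well overlapped. MT-ATP8 overlaps MT-ATP6, and its level was uneven, with 8.56, 65.3 and 35 CPM and no call without triptolide well 3 (0.83). The 100 most abundant genes of each well held 25.9 ± 0.533% of counts against 19.4 ± 1.06% (exact permutation p = 0.000752, adjusted 0.00094).

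Of 75 nuclear genes of oxidative phosphorylation, 18 were raised (24%, beside 11.4% of all genes), 0 lowered and 57 not called (median 0.76, or -0.88 under mitochondrial scaling). By library size 6 were raised and 1 lowered, and with the GC covariate 11 were raised. COX4I1 was at 636, 640 and 563 CPM against 187 to 352 in DMSO (1.15, or 0.90 by library size and -0.38 under mitochondrial scaling), and NDUFA13 (1.63), ATP5MF (1.41) and NDUFB8 (1.35) rose. Genes of the mitochondrial ribosome had 10 of 78 lowered (12.8%, beside 21%) and 0 raised (median -0.27; MRPL1 -2.24, MRPS26 -2.01), or 24 lowered by library size. The oxidative phosphorylation median thus lay above the -0.16 over all genes, whereas that of the mitochondrial ribosome list was close to it.

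Collagen genes, which encode long-lived matrix mRNAs, had the largest share of raised members among the nuclear lists examined. Of 44 on the list 31 were tested, 19 rose and 0 fell, with a median of 1.11 that became -0.47 under mitochondrial scaling, and 8 were raised by library size. COL1A1 was at 4687, 3055 and 4628 CPM against 1408 to 2580 in DMSO (median 1864), a log2(Fold Change) of 1.12 ± 0.138 (adjusted p = 2.10e-07; -0.45 under mitochondrial scaling). It was under the fold threshold by library size (0.88) and with the GC covariate (0.96). COL11A1 was at 112, 131 and 117 CPM against 28.2 to 62.4 in DMSO (1.67). The network collagens COL4A1 (1.34) and COL4A2 (1.11) and the microfibrillar COL6A1 (1.14) and COL6A2 (1.11) rose too. COL1A2 was called from levels under 1 CPM in every well, and that call is uncertain.

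Lysosomal genes had 9 of 27 raised and 1 lowered (median 0.81, or -0.79 under mitochondrial scaling), with 1 raised by library size and 5 without triptolide well 1. The alpha-glucosidase GAA (1.44, or -0.17 under that scaling) and the cathepsins CTSL (1.27), CTSZ (1.24), CTSB (1.20) and CTSD (1.11, or 0.84 by library size) rose, and TFEB, the transcription factor of lysosomal genes, fell (-1.22). Cytoskeleton genes had 8 of 25 raised, or 2 by library size, and 0 lowered (median 0.68, or -0.87), with TAGLN at 1.56, TPM2 at 1.27 and MYL9 at 1.14; ACTB (0.68) was not called. In glycolysis, 4 of 18 rose (median 0.61, or -0.99), namely ALDOC (1.13), TPI1 (1.12), PKM (1.08) and PFKL (1.03), and 0 were called by library size or with the GC covariate. ER chaperones had 3 of 20 raised (median 0.75, or -0.77; PDIA4 1.14, CRELD2 1.07, DNAJC3) and 2 lowered, XBP1 (-1.66) and HERPUD1 (-1.42), with 8 raised without triptolide well 2, 7 without both shallow libraries and 0 by library size. Proteasome subunits had 3 of 37 raised, or 6 without triptolide well 2, and 1 lowered (median 0.17, but -0.13 by library size and -1.43 under mitochondrial scaling), and sterol and fatty acid synthesis genes 1 raised and 2 lowered of 24.

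**Figure D3:**
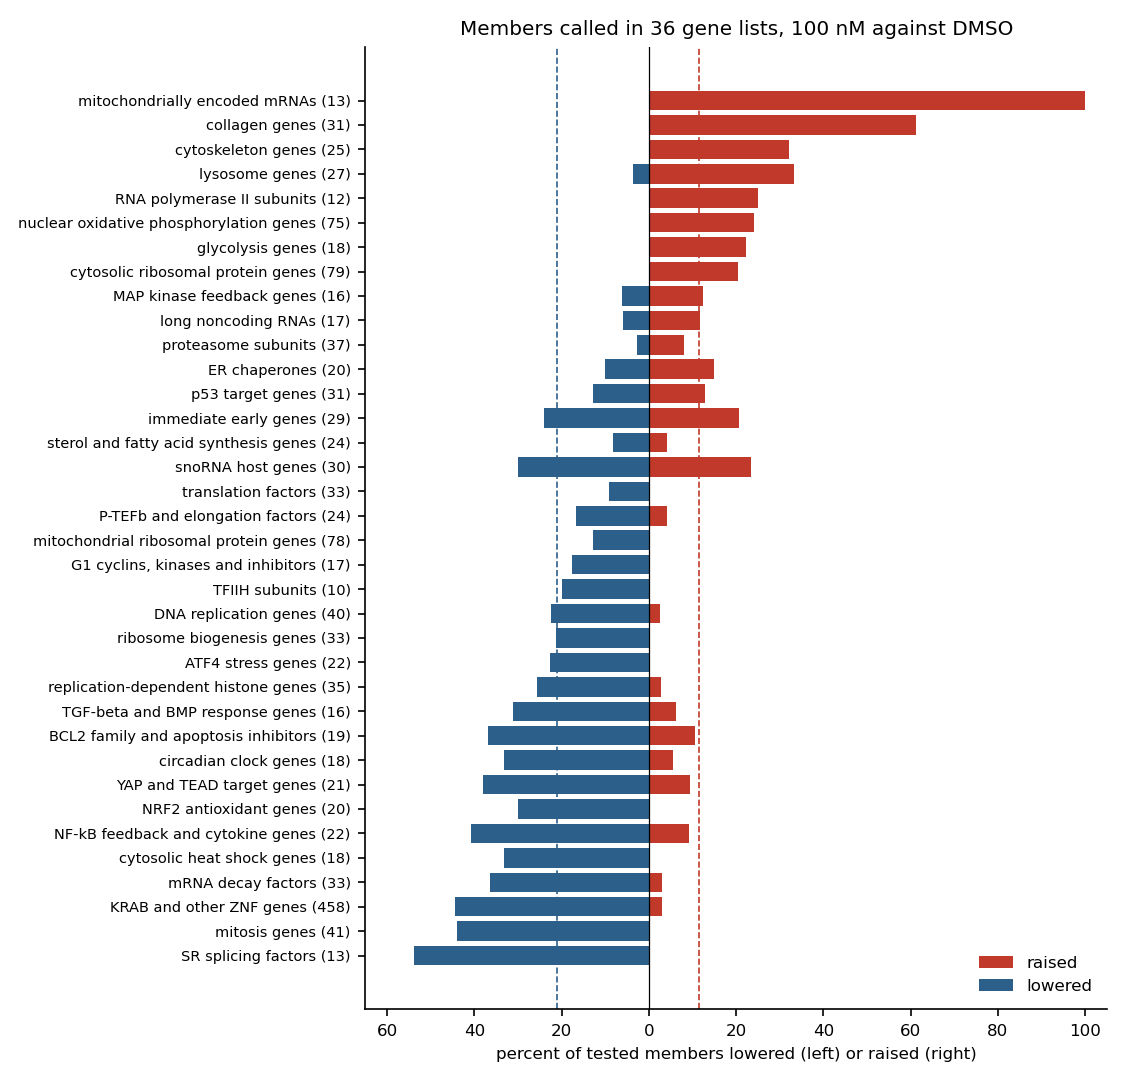
Percent of tested members raised (red, right) and lowered (blue, left) at 100 nM against DMSO in 36 gene lists, with the number tested in brackets and dashed lines at the 11.4% raised and 21% lowered over all genes. Mitochondrially encoded mRNAs and collagen genes extend furthest to the right and SR splicing factors furthest to the left. Scaled to mitochondrially encoded mRNAs, collagen, cytoskeleton, lysosome, oxidative phosphorylation, glycolysis and ribosomal protein lists have medians below 0.

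Noncoding RNAs were mixed. Of 30 snoRNA host genes, 9 fell and 7 rose (median -0.27). SNHG26 (-3.12), SNHG18 (-2.77), SNHG3 (-2.49) and SNHG1 (-2.42) fell, and SNHG22 (2.38), SNHG31 (1.66) and SNHG21 (1.49, or -0.16 under mitochondrial scaling) rose. GAS5 fell (-1.23; 26.4, 0 and 9.45 CPM against 20.8 to 61.4) but was not called without triptolide well 3 (-0.74). In the list of long noncoding RNAs, PURPL (2.15) and H19 (1.28) rose and TUG1 (-1.55) fell of 17 tested, and neither NEAT1 (-0.92) nor MALAT1 (-0.78) was called. Over all lncRNA genes, 16.4% of 2368 were raised and 17.1% lowered, against 10.3% and 22.3% of 14396 protein-coding genes. Their median level in DMSO was 0.718 CPM against 22.1 CPM for protein-coding genes. The lncRNA share of counts was 0.824 ± 0.120% against 0.903 ± 0.0407% (exact permutation p = 0.0308), but the p was 0.310 without triptolide well 1 and 0.184 without well 3.

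Gene structure moved with the response. Protein-coding genes were put in 5 equal groups by 3′ UTR length, cut at 397, 928, 1745 and 3171 bases. From the shortest to the longest group, the share lowered went from 13.2 to 28.5% and the share raised from 17.8 to 5.1%. The same held for spliced length, with 11.9 to 28.6% lowered and 16.9 to 6.53% raised. By GC content of the transcript, 27.4% of the lowest group and 16.3% of the highest were lowered, and 4.38% and 18.5% were raised. GC content was also tied to the libraries, since the slope of level on GC content was 0.195, 0.341 and 0.142 in the triptolide wells and -0.413 to 0.264 in DMSO wells. With that slope as a covariate, added after the data were seen, the GC groups were lowered at 18.4 to 21.8%, while the 3′ UTR groups still went from 13 to 23.6%. Within the middle GC group, 13.1% of genes with the shortest and 25% with the longest 3′ UTRs were lowered. Single-exon genes were lowered more often (30.1% of 346) than genes of 20 or more exons (20.9% of 2228). Their median DMSO levels differed, at 6.16 and 32.5 CPM. In 5 equal groups by DMSO level, from low to high, 16.5, 30.4, 29.3, 22.3 and 13.2% were lowered. In the same order, 23.5, 8.3, 5.14, 5.11 and 9.59% were raised. The part of level in the exon difference was not tested.

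**Figure D4:**
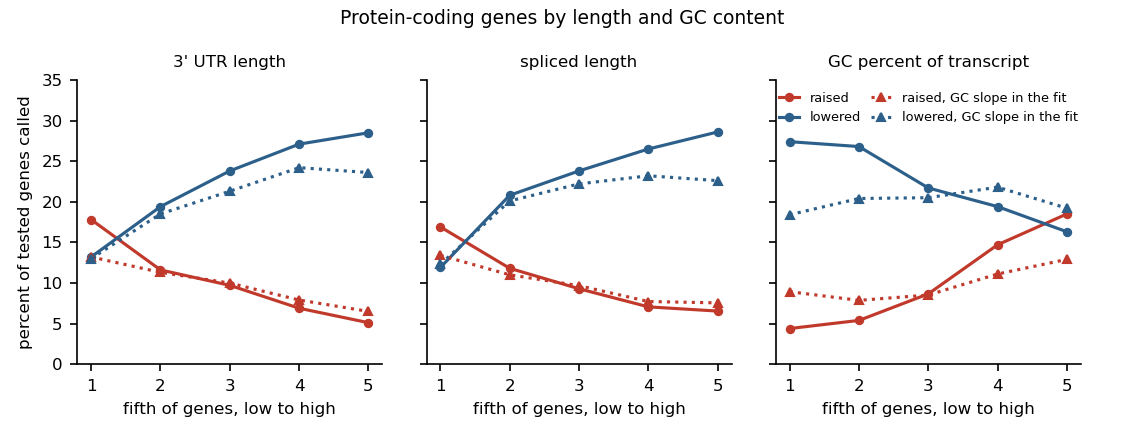
Percent of tested protein-coding genes raised (red) and lowered (blue) in 5 equal groups by 3′ UTR length, spliced length and GC content, in the main fit (solid lines, circles) and with each library's GC slope in the fit (dotted lines, triangles). From the shortest to the longest group by 3′ UTR or spliced length, genes were lowered more and raised less often in both fits. With the covariate the lowered share does not rise further in the last group (24.2 then 23.6% by 3′ UTR length, 23.2 then 22.6% by spliced length). The trend in lowered genes with GC content is present in the main fit and not with the covariate.

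Among single genes with a mean of at least 10 CPM in 1 group, the largest rises were those of genes with low levels in DMSO. The transmembrane gene SHISA2 was at 26.6, 13.1 and 27.6 CPM against 1.12 to 3.78 in DMSO, a log2(Fold Change) of 4.14 ± 0.145 (adjusted p = 1.16e-16). APOLD1, an endothelial early-response gene, was at 38.1, 39.2 and 35.7 CPM against 0 to 3.94 (3.65 ± 0.137; adjusted p = 3.23e-16). The secreted protein gene CRISPLD2 was at 83.8, 39.2 and 66.7 CPM against 5.95 to 8.77 (3.28 ± 0.111; adjusted p = 1.16e-16). Wells 1 and 3 agreed for each of these, and well 2 held only 1 to 3 counts. SEZ6 (6.33), FAT2 (3.74) and the readthrough transcript RPL36A-HNRNPH2 (3.37) passed this 10 CPM rule largely through 1 or 2 counts in well 2, and the last was not called without well 1 (3.10). CEP295NL (3.59), DNAH10 (3.41) and CRTAC1 (3.21) were the other rises named by this rule.

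The largest falls beside ZNF772 and ANKRD1 were those of TUBA3E (-3.97), ATF7IP (-3.94), METTL1 (-3.93), ZNF608 (-3.93), EFNA4 (-3.92), ANKMY2 (-3.92), ZSCAN26 (-3.91) and TADA1 (-3.90). ATF7IP, a cofactor of histone methylation, was at 2.16, 0 and 3.27 CPM against 25.9 to 60.5 in DMSO (adjusted p = 9.49e-10). TADA1, a subunit of the SAGA coactivator, was at 0.856, 0 and 0.7 CPM against 1.89 to 15.9. TUBA3E is nearly identical to other alpha-tubulin genes and its value is uncertain. Each of these 10 genes was at 0 in well 2, so the falls rest on wells 1 and 3.

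The same genes were followed to the higher doses. Between 1000 nM and 100 nM, 13113 genes were tested, and 1050 were higher at 1000 nM (8.01%) and 2073 lower (15.8%). Without 100 nM well 2 and 1000 nM well 1, 950 (6.02%) were higher and 2470 (15.6%) lower of 15791. This comparison shares the 100 nM wells with the one above. POLR2A was at 299 ± 10.1 CPM (SD, n = 3) at 1000 nM, back in the DMSO range, and at 139 CPM at 10000 nM. FOSB was at 1.65 ± 0.123 CPM at 1000 nM, and TOB1 at 3.24 ± 0.106 CPM. Each of these genes was thus high at 100 nM alone among the doses. HEXIM1 was at 13.7 ± 3 CPM and ZNF622 at 3.46 ± 1.53 CPM at 1000 nM, both under every DMSO well. MYC was at 3.11 ± 2.19 CPM and NFKBIA at 0.161 ± 0.0528 CPM, both below their 100 nM wells. At 10000 nM MYC was at 2.51 ± 0.383 CPM and NFKBIA at 0.210 ± 0.0819 CPM, with wells that overlapped those at 1000 nM.

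Of 30 listed immediate early genes, 22 passed the filter on low counts in this comparison. A gene under that filter in every 1000 nM well could enter only if every 100 nM well passed it. The filter thus partly sets the direction of these calls. Of the 22, 21 were lower at 1000 nM than at 100 nM and 0 higher (0 also in DESeq2 and at an unadjusted p under 0.05), with a median of -3.65. In contrast, 6 of 13 mitochondrially encoded mRNAs were higher (median 1.01), and 0 of 79 ribosomal protein and 0 of 26 collagen genes were called in either direction, with 1 ribosomal protein gene at an unadjusted p under 0.05 and 0 called by DESeq2. LIF fell to 4.58, 0 and 4.9 CPM at 100 nM and was at 47.7 ± 10.3 CPM at 1000 nM, against 18.4 to 36.5 CPM in DMSO. SRSF3 (39.8 ± 1.32 CPM at 1000 nM), CDC20 (264 ± 23.5 CPM) and CDK12 (20.1 ± 2.3 CPM) were close to their 100 nM levels, with differences of 0.02, 0.05 and -0.37 on the log2 scale that were not called.

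**Figure D5:**
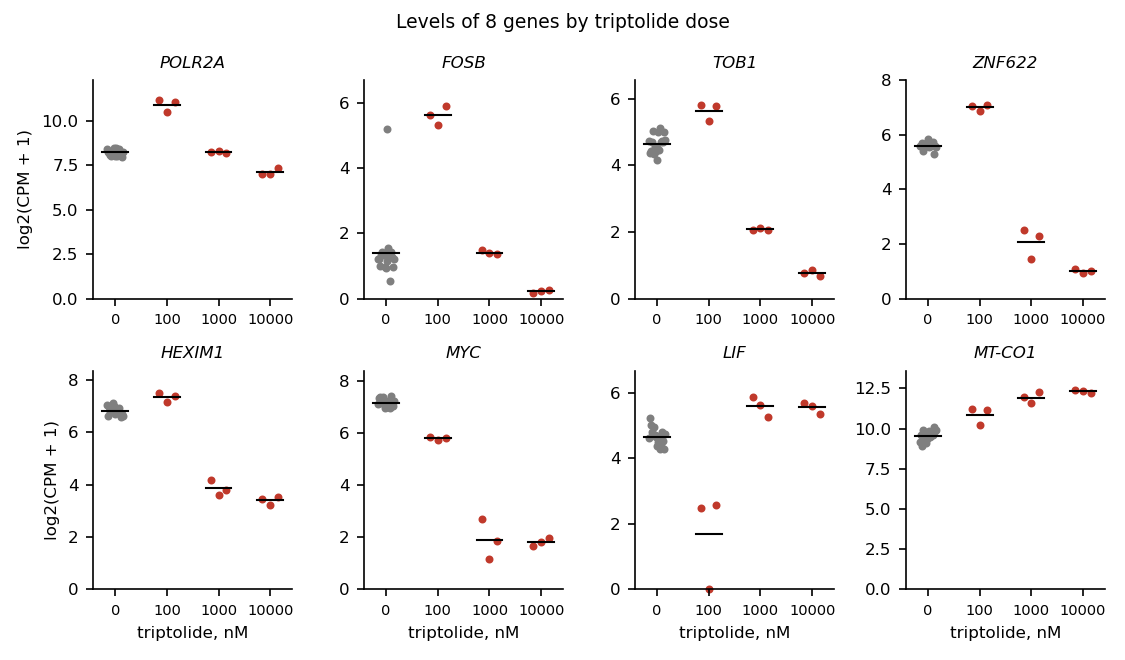
Levels of 8 genes on a log2(CPM + 1) axis in DMSO (0 nM, 18 wells, grey) and at 100, 1000 and 10000 nM triptolide (3 wells each, red), with bars at the mean of the log2 values. POLR2A, FOSB, TOB1, ZNF622 and HEXIM1 have their highest mean at 100 nM, and MYC falls at 100 and 1000 nM. LIF has its lowest mean at 100 nM, and MT-CO1 is higher at each dose. Scaled to mitochondrially encoded mRNAs, FOSB and POLR2A stay above DMSO at 100 nM and HEXIM1, TOB1 and ZNF622 do not. MT-CO1 is among the mRNAs that set this scaling and cannot be judged by it.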

How the data were processed

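Population RNA-seq wells were grouped from their labels. The libraries were TruSeq poly(A)-selected and stranded, and the authors processed them with an RSEM workflow on GRCh38; the submitters' processing notes also name HTSeq and DESeq2, and versions are not given in the sources used here. As deposited, the expected counts are read numbers per gene estimated by RSEM without normalization, and they were rounded to whole numbers. The deposited TPM values, scaled by the authors to gene length and a fixed sum, served only as a second scale for the mitochondrial share, which was higher with triptolide on it too (0.983 against 0.512%; exact permutation p = 0.00226). Each file held 60371 rows; 92 spike-in rows, 0.0158 to 0.762% of counts in the 21 wells, were left out of library sizes and tests, and 56104 of 60279 gene identifiers had a symbol in GENCODE 44.

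Tests used edgeR 4.0.16 in R 4.3.3 (TMM, filterByExpr with a smallest count of 10, glmQLFit, glmQLFTest, Benjamini-Hochberg adjustment) on the 21 wells, without covariates, and on 6 wells for 1000 nM against 100 nM, with TMM factors taken over the DMSO and triptolide wells together. Levels are CPM by the library total of the tested genes multiplied by the TMM factor of the well. That factor was 0.781, 1.09 and 0.822 in triptolide 100 nM wells 1, 2 and 3 and 0.972 to 1.15 in DMSO wells. Both fits were also run on simulated counts with as many genes raised as lowered, which does not check the choice of scaling. Shares were compared by two-sided exact permutation over 1330 assignments of wells. Wells of 1 group were checked for duplicates and differed by more than sampling noise. Named genes were the 10 largest rises and falls among protein-coding genes called with and without the shallow libraries, with a mean of at least 10 CPM in 1 group and every triptolide well above, or every one below, the DMSO mean, preset anchor genes of 36 lists, and the largest such rise and fall of each list; 1 gene that this rule names is not reported here; further list members are named with their fold change only, and were chosen after their values were seen. The members and lists were chosen with earlier results of these data known. DESeq2 1.42.0, other scalings, other filters, left-out wells, a replicate block and a GC slope covariate were tried as alternatives.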

Additional observations from a re-analysis of the deposited data

Results flagged for a closer look

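Among the genes named by the rule, 18 were called in opposite directions in the comparison of 100 nM with DMSO and in the comparison of 1000 nM with 100 nM. Both comparisons use the same 100 nM wells, so an error in those wells would move both values apart, and they are given side by side only. The log2 fold changes of 1000 nM against 100 nM follow, and those of 100 nM against DMSO stand in the report or, for H2AC6, beside the value. Among genes raised at 100 nM they were -5.22 for ZNF622, -5.0 for FOSB, -5.0 for SHISA2, -4.16 for RPL36A-HNRNPH2, -4.04 for TOB1, -3.98 for ELL, -3.78 for FAT2, -3.27 for APOLD1, -3.18 for CRISPLD2, -2.93 for PER1, -2.72 for POLR2A, -2.30 for DNAH10, -2.30 for CRTAC1, -1.91 for PMAIP1 and -1.43 for CEP295NL. Among genes lowered at 100 nM they were 3.35 for LIF, 2.45 for ANKMY2 and 1.71 for H2AC6 (-1.39 at 100 nM against DMSO), a histone gene whose reads may be shared with near copies.

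The ERCC spike-in rows, which no comparison uses, took 0.762% of counts in triptolide well 3, above the highest DMSO well (0.510%). Wells 1 and 2 held 0.168 and 0.499%, and 7 and 1 DMSO wells respectively lay above them. The DMSO wells spanned a 32.3-fold range with a median of 0.112%. A two-sided exact permutation test, chosen after these values were seen, gave p = 0.0128, or 0.0409 without both shallow libraries. The amount of spike-in added per well is not given in the sources used here, so it was not used for scaling.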

How the results depend on the processing

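Scaling changed the split of calls most. At 100 nM, 1085 genes were raised by library size alone, 146 raised and 13802 lowered when scaled to mitochondrially encoded mRNAs, 4148 raised with no filter on low counts (49.4% of calls raised, against 35.1%) and 1010 raised with the replicate number as a block, beside 2099 and 3877. Between 1000 nM and 100 nM, 463 genes were higher by DESeq2, 135 higher and 4437 lower under mitochondrial scaling, and 3256 lower with no filter, beside 1050 and 2073. Leaving out 1 well at a time gave 1805 to 2600 raised and 3421 to 3866 lowered genes at 100 nM (only triptolide wells and DMSO well 10 were left out). For the dose step it gave 669 to 1234 higher and 1515 to 2875 lower genes, with 679 higher without 100 nM well 1 and 669 without well 3. The causes were not tested. Same-numbered wells did not deviate together (r of 0.109, -0.111 and -0.0484 with DMSO wells), so the numbers were not taken as pairs.

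Under mitochondrial scaling, which lowers nuclear genes by construction, 31 named genes changed sign and were called in it or in the main fit: HEXIM1 -1.04, TNFAIP3 -1.60, SPRY4 -0.094, CDKN1A -1.52, PER1 -0.56, MT-CO1 -0.13, COX4I1 -0.38, PSMB5 -1.02, VIM -1.46, EEF2 -1.15, CCND1 -1.21, NCL -1.27, ZFP36L1 -1.21, NQO1 -1.26, LAMP1 -0.52, CTSD -0.43, COL1A1 -0.45, ELL -0.61, IL11 -0.37, CRIM1 -0.27, ZNF622 -0.15, RPS15 -0.32, PSMB10 -0.58, TPI1 -0.43, TAGLN -0.11, LIG1 -0.38, SNHG21 -0.16, TOB1 -0.53, PDIA4 -0.44, FDPS -0.62 and GAA -0.17. Sign changes of named genes called in neither fit are left out. MT-CO1 is among the mRNAs that set this scaling, so its value is held near 0 by construction. Of 113 named genes, 92 kept their call, or stayed uncalled, by library size alone, 94 with the replicate block, 98 with the GC covariate, 106 with no filter, 108 to 112 when 1 well was left out, and 112 each with DESeq2 and without both shallow libraries. With the replicate block, COL1A1 (0.83), ELL (0.67) and CTSD (0.71) were among 14 that lost their call, and raised members numbered 2 of ribosomal protein, 2 of oxidative phosphorylation, 0 of glycolysis, 3 of lysosome, 2 of cytoskeleton and 11 of collagen genes, with 7 mRNA decay factors lowered. In triptolide well 2 a gene below 39.2 CPM cannot be told from absent.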
